A study of Arabidopsis thaliana with 11 samples.

Results

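The 44 genes described here encode the nuclear part of the auxin response of Arabidopsis thaliana: the 29 Aux/IAA genes, and 15 of the AUXIN RESPONSE FACTOR (ARF) genes, ARF1 to ARF11 and ARF16 to ARF19. They were chosen by their locus identifiers, with earlier results of these data known. Each of the 44 matched a protein-coding locus of the RefSeq annotation under its own name. Their binding by APETALA1 (AP1) and SEPALLATA3 (SEP3), MADS-domain transcription factors that specify floral meristems and floral organs, was read from 6 lists of binding sites (BSs) made by chromatin immunoprecipitation and sequencing (ChIP-seq). Of the 44 genes, 34 were named in at least 1 list, out of 9141 loci named in all. Of the 18963 BSs in the 6 lists, 180 named 1 of the genes.

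The plants carried AP1 fused to the glucocorticoid receptor under the AP1 promoter (pAP1:AP1-GR) in the ap1-1 cal-1 double mutant, ecotype Landsberg, and all of them, including those of the mock control, were treated with dexamethasone (DEX), which moves the fusion protein into the nucleus so that flowers start to form together. Inflorescences were collected 2, 4 and 8 days after induction. The fusion protein was pulled down through its receptor domain and SEP3 through a peptide antibody, and pre-immune serum gave the mock control of each day. The bound AP1 is therefore a fusion protein made where the AP1 promoter is active in a double mutant, and its sites were mapped on the reference of another ecotype. The titles of both SEP3 day 2 samples say day 2, while their tissue label gives 4 days, so that the SEP3 day 2 values below carry a doubt about the day. The series description gives 1 replicate for that day and the titles list 2. Over days 2, 4 and 8 the lists held 498, 956 and 1075 AP1 BSs and 1776, 6843 and 7815 SEP3 BSs. The authors called each list once, from reads of its replicates put together, so no spread between replicates and no test of a difference can be given. No list of BSs from the mock samples was analysed, and the lists hold no expression by which the tissue label could be checked. Read depth was not analysed here, and a gene outside a list is not shown to be unbound. Intervals below are 95% Wilson intervals over genes, or over BSs where BSs are counted, and they cover counting error only.

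Auxin acts by removing repressors. Aux/IAA proteins hold ARF proteins inactive by recruiting the co-repressor TOPLESS, and auxin joins the Aux/IAA proteins to the receptor TIR1 or its AFB relatives, after which they are degraded and the ARFs are released. ARFs bind auxin response elements (AuxREs) in the promoters of their targets, and Aux/IAA genes are themselves among those targets. In the inflorescence, auxin maxima mark where flowers arise, ARF5 (MONOPTEROS) is needed for flowers to form at all, ARF3 (ETTIN) patterns the gynoecium, and ARF6 and ARF8 act in the maturation of petals, stamens and gynoecium.

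Sequences under upstream BSs of 4 genes that AP1 held on several days are shown first. Each covers a summit, the position of highest signal in a BS, and the 50 bases on either side of it, on the plus strand of the TAIR10 reference (RefSeq sequence of the Columbia ecotype, not read from the Landsberg plants). They are centred on SEP3 summits, and they show what lies under BSs that both factors held. The nearest AP1 summit of the same day was 47 bp away at ARF3, 19 bp at IAA27, 32 bp at ARF6 and 35 bp at IAA17. The windows are chr2:14331350-14331450 (2422 bp upstream of the ARF3 start), chr4:14326199-14326299 (888 bp upstream of IAA27), chr1:10693088-10693188 (2150 bp upstream of ARF6) and chr1:1134469-1134569 (1559 bp upstream of IAA17). Capitals mark an AuxRE of the form TGTCGG, read on the other strand as CCGACA, in the ARF3 window, and a CArG box with 1 mismatch in the IAA17 window.
ARF3: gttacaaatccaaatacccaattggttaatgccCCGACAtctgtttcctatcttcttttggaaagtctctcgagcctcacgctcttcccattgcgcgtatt
IAA27: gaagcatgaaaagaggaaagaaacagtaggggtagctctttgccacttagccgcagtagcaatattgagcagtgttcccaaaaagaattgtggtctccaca
ARF6: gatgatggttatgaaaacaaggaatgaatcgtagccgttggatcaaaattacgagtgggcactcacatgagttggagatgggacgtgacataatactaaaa
IAA17: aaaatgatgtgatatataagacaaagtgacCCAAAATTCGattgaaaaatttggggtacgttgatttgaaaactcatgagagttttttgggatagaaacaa

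A CArG box is the element that MADS-domain proteins bind, and it was searched as CC followed by 6 letters that are A or T and then GG. None of the 4 windows above holds a complete one. A complete box lay within 50 bp of a summit at 5 sites of the auxin genes, all held by SEP3 and none by AP1, and 1 window of each is shown next. The windows are chr3:8183041-8183141 (996 bp upstream of IAA2), chr2:14117097-14117197 (1058 bp upstream of IAA13), chr3:6021525-6021625 (428 bp upstream of IAA31), chr4:14708446-14708546 (2142 bp upstream of ARF16) and chr2:14330100-14330200 (1172 bp upstream of ARF3). Capitals mark the CArG box.
IAA2: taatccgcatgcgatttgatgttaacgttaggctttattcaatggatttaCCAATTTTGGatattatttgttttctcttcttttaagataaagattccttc
IAA13: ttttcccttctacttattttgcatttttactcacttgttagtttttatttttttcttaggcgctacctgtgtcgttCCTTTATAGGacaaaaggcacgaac
IAA31: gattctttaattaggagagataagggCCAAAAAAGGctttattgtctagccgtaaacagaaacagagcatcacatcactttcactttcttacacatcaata
ARF16: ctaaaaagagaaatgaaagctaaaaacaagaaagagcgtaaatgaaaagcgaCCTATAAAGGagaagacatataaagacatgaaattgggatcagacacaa
ARF3: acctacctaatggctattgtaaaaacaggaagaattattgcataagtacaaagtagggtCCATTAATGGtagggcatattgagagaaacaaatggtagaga

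To see how widely each factor bound the auxin genes, the loci named in each list were counted. AP1 lists named 10 of the 44 genes and SEP3 lists named 34, and every gene of the AP1 lists was also in a SEP3 list. Such overlap was general. SEP3 named 80%, 100% and 100% of the AP1 genes of the set on the same day at days 2, 4 and 8. The shares over all coding loci in the AP1 lists were 88.3%, 99.2% and 95%. AP1 named 5 of the 44 genes at day 2 (11.4%, 95% interval 4.95 to 24%), against 1.78% of the 27444 annotated protein-coding loci. It named 7 at day 4 (15.9%, 7.93 to 29.4%), against 3.55%, and 9 at day 8 (20.5%, 11.2 to 34.5%), against 3.89%. The share among the auxin genes was thus 6.38, 4.49 and 5.26 times the share among all coding loci at days 2, 4 and 8, on counts of at most 9 genes.

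SEP3 named 11 of the 44 genes at day 2 (25%, 14.6 to 39.4%), against 6.59% of coding loci. It named 29 at day 4 (65.9%, 51.1 to 78.1%), against 25.7%, and 32 at day 8 (72.7%, 58.2 to 83.7%), against 28.3%. These shares were 3.79, 2.56 and 2.57 times those of all coding loci. Over the 3 days AP1 named 22.7% of the auxin genes, against 5.23% of coding loci, SEP3 named 77.3% against 31.1%, and any of the 6 lists named 77.3% against 31.3%. A longer gene has a longer window in which a BS can be assigned to it, and the median gene length was 1740 bp for Aux/IAA and 4530 bp for ARF genes, against 2078 bp for all coding loci. Set against the 7014 coding loci of at least 3000 bp, a comparison added after the data were seen, the AP1 ratios were 6, 3.73 and 4.58 at days 2, 4 and 8, and the SEP3 ratios 3.36, 2.2 and 2.24.

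The ratio depends on what the genes are compared with. Of the 34 auxin genes in at least 1 list, SEP3 named 85.3% at day 4 and 94.1% at day 8, against 82.2% and 90.5% of the 8583 listed coding loci. Against listed loci the late SEP3 shares were thus close to the background. SEP3 lists, however, named 99.5% of the listed coding loci and all 34 listed auxin genes. To be listed was therefore nearly the same as to be named by SEP3. This comparison cannot show whether SEP3 named the auxin genes more often than other genes. In the AP1 lists of days 2, 4 and 8 the 34 genes were named at 14.7%, 20.6% and 26.5%, against 5.70%, 11.3% and 12.4% of listed coding loci.

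**Figure D1:**
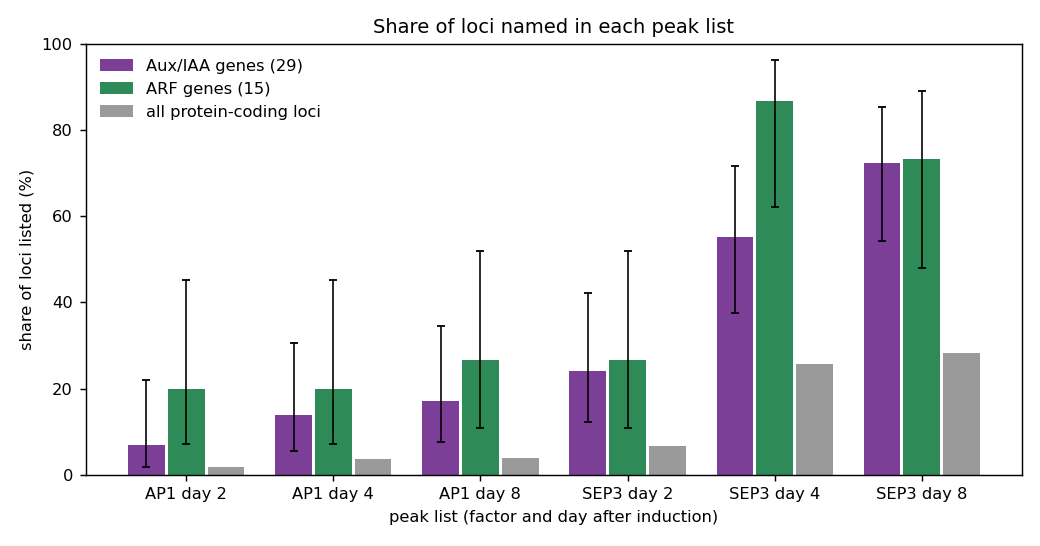
Share of loci named in each of the 6 peak lists, in percent, for the 29 Aux/IAA genes (left bar), the 15 ARF genes (middle bar) and all annotated protein-coding loci (right bar); error bars are 95% Wilson intervals over genes. Both families lie above all coding loci in each list, with 13 of 15 ARF genes named by SEP3 at day 4 as the highest share.

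Both families were bound. Of the 29 Aux/IAA genes, AP1 named 2, 4 and 5 at days 2, 4 and 8, and SEP3 named 7, 16 and 21. Of the 15 ARF genes, AP1 named 3, 3 and 4, and SEP3 named 4, 13 and 11. The ARF share was the higher of both families in all 6 lists, narrowly so for SEP3 at day 2 (26.7% against 24.1%) and day 8 (73.3% against 72.4%). The intervals overlapped in each list, for example 37.5 to 71.6% for Aux/IAA and 62.1 to 96.3% for ARF genes in the SEP3 day 4 list. ARF genes are also the longer ones, and the part of gene length in this was not tested.

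The day on which a gene was first listed differed among the members. AP1 held IAA4, IAA17, ARF3 and ARF6 at all 3 days, ARF11 at days 2 and 4, IAA26 and IAA27 at days 4 and 8, and IAA18, ARF2 and ARF5 at day 8 only. None of the 10 was in the AP1 list of day 2 or day 4 alone, patterns shown by 3.56% and 14.6% of the coding loci in any AP1 list. Day 8 alone took 30% of the 10, against 25.9%, and days 4 and 8 took 20%, against 25.3%. SEP3 held 11 genes at all 3 days: IAA2, IAA4, IAA8, IAA18, IAA26, IAA27, IAA31, ARF3, ARF6, ARF10 and ARF11. Another 16 were in the SEP3 lists of days 4 and 8 (47.1%, against 54.7% of the coding loci in any SEP3 list). Day 8 alone took 5, namely IAA1, IAA6, IAA7, IAA12 and IAA29 (14.7%, against 16.6%). Day 4 alone took ARF4 and ARF18 (5.88%, against 7.49%). The genes present throughout were 4 of the 10 AP1 genes (40%), against 20.6% of the 1434 coding loci in any AP1 list, and 32.4% of the 34 SEP3 genes, against 19.5% of 8542.

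**Figure D2:**
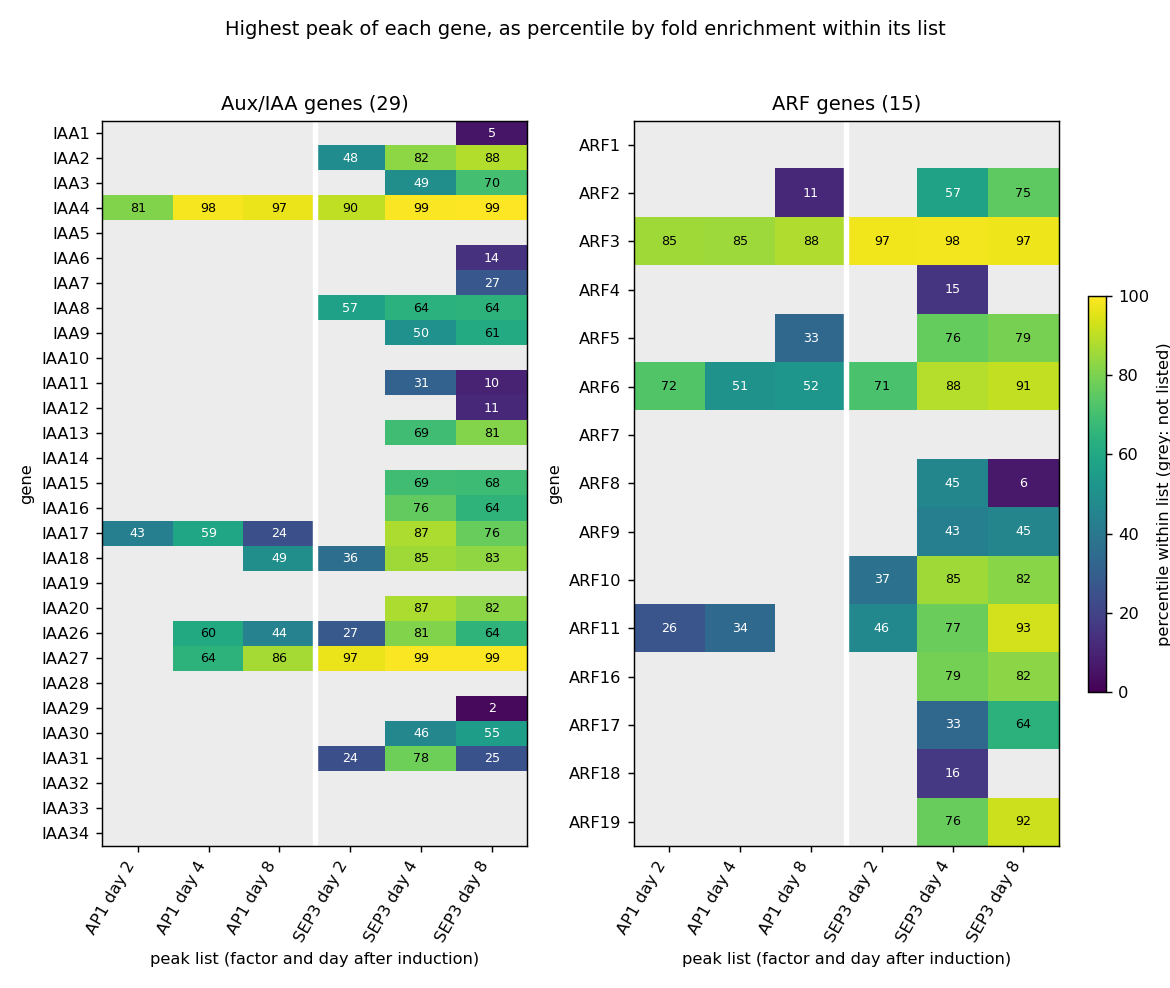
Each of the 29 Aux/IAA genes (left panel) and 15 ARF genes (right panel) by peak list, coloured and numbered by the within-list percentile of its highest BS by fold enrichment, rounded down, with grey where the gene was not listed. IAA4, IAA27 and ARF3 form the brightest rows, and 10 rows are grey throughout.

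The BSs themselves were ranked within each list, since fold enrichments of separately called lists are not on one scale. The percentile of a BS is the percent of its list with the same or a lower fold enrichment of ChIP over control. As a group, the BSs of the auxin genes were of middling strength. Their median percentile was 47, 60 and 46.9 in the AP1 lists of days 2, 4 and 8 (7, 10 and 12 BSs) and 48.6, 52 and 58 in the SEP3 lists (17, 62 and 72 BSs), beside 50 for the middle of a list. Of these BSs, 0, 1 and 1 lay in the top 10% of the AP1 lists and 3, 3 and 6 in the top 10% of the SEP3 lists. The auxin genes were thus named often, but by BSs spread over the whole range of strengths, and the BSs in the top 10% belonged to IAA4 in the AP1 lists and to IAA4, IAA27 and ARF3, joined at day 8 by ARF6, ARF11 and ARF19, in the SEP3 lists.

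**Figure D3:**
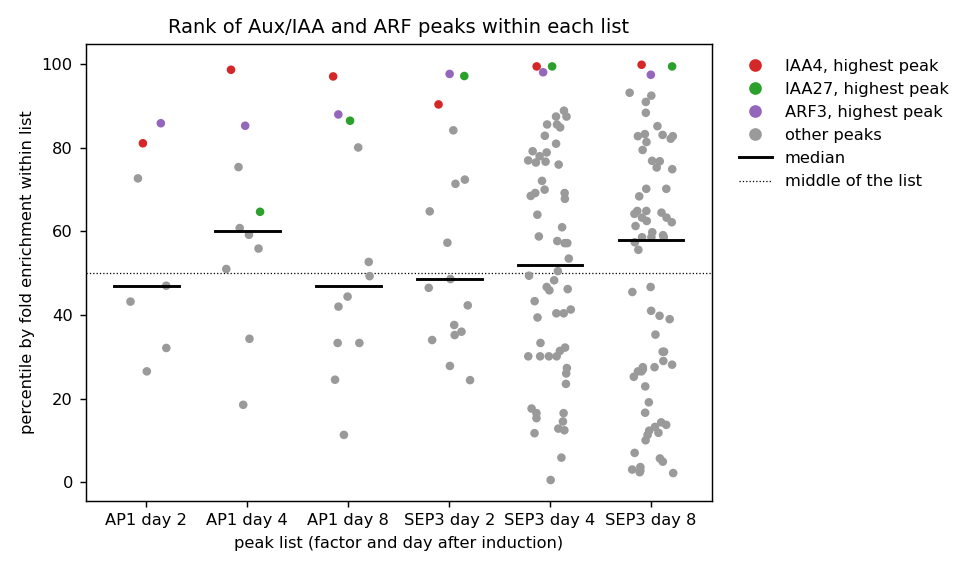
Within-list percentile by fold enrichment of every BS assigned to an Aux/IAA or ARF gene, by list; each point is 1 BS, the solid bar is the median and the dotted line the middle of the list. The highest BSs of IAA4, IAA27 and ARF3 (coloured) lie at percentile 90.4 or above in all 3 SEP3 lists, while the medians run from 46.9 to 60.

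IAA4, IAA27 and ARF3 were the only genes of the set among the 498 BSs of highest fold enrichment of each SEP3 list. IAA4 (AT5G43700, chromosome 5) is a canonical, auxin-induced Aux/IAA gene. Its main BS lay at the start of the gene, in the 5′ UTR. AP1 enrichment there was 5.11-fold, 7.98-fold and 6.22-fold at days 2, 4 and 8, which ranked the BS 95th of 498, 13th of 956 and 32nd of 1075. SEP3 enrichment was 7.12-fold, 11.73-fold and 8.85-fold, ranking it 172nd of 1776, 32nd of 6843 and 9th of 7815. The 6 summits fell within 6 bp of each other, between positions 17550209 and 17550215, which is 30 to 36 bp inside the annotated start. A weaker neighbouring BS 273 bp upstream was called apart from it at day 2 for AP1 (4.02-fold), and one 235 bp upstream for SEP3 (4.86-fold), and at days 4 and 8 the main BS overlapped that stretch. SEP3 had further BSs past the gene end at days 4 and 8 (3.80-fold and 4.16-fold), which also named AT5G43710, and 1098 bp upstream at day 8 (2.42-fold).

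IAA27 (AT4G29080, chromosome 4) encodes an Aux/IAA protein also known as PHYTOCHROME-ASSOCIATED PROTEIN 2. It had a pair of BSs in its promoter. It was not in the AP1 list of day 2, and at day 4 AP1 held BSs 195 and 882 bp upstream (4.68-fold and 4.4-fold). At day 8 they lay 214 and 869 bp upstream, with 4.17-fold and 4.59-fold enrichment, percentiles 80.1 and 86.5. SEP3 held both at day 2, 144 and 892 bp upstream (6.25-fold and 9.02-fold), the distal one ranking 51st of 1776. At days 4 and 8 the SEP3 signal was called as 1 wide BS with its summit at the distal position, 890 and 888 bp upstream, with 11.67-fold and 8.69-fold enrichment, ranks 36 of 6843 and 34 of 7815. These BSs were 1600 and 1700 bp wide, the 43rd and 46th widest of their lists, against medians of 338 and 360 bp. The distal AP1 summits were 8 and 19 bp from the SEP3 summit of the same day. A separate SEP3 BS 1508 and 1513 bp upstream was weaker, with 3.87-fold and 3.76-fold enrichment.

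ARF3 (AT2G33860, chromosome 2), whose product patterns the gynoecium and lacks the domain that binds Aux/IAA proteins, had 2 BSs that both factors shared. The distal one, 2389 to 2469 bp upstream, was in all 6 lists. AP1 enrichment there was 5.54-fold, 5.79-fold and 4.71-fold at days 2, 4 and 8 (percentiles 85.9, 85.3 and 88.0), and SEP3 enrichment was 9.55-fold, 10.62-fold and 7.72-fold (ranks 42, 126 and 191). The highest summits of the 6 lists spanned 80 bp. The proximal BS lay 20 to 56 bp inside the start, in the 5′ UTR. AP1 held it at days 2 and 4 (3.66-fold and 5.15-fold) and not at day 8, while SEP3 held it at all 3 days (5.24-fold, 6.95-fold and 3.59-fold). Thus the distal AP1 BS persisted through day 8 in a gene whose proximal AP1 BS was no longer called. The SEP3 day 4 BS was 1686 bp wide and overlapped a second SEP3 BS of day 2, 2124 bp upstream (4.12-fold), and a BS 1172 bp upstream appeared for SEP3 at day 8 at 2.14-fold.

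ARF6 (AT1G30330, chromosome 1), an activating ARF, was the remaining gene with a BS in all 6 lists. That BS lay 2147 to 2225 bp upstream. AP1 enrichment was 4.75-fold, 4.21-fold and 3.02-fold at days 2, 4 and 8 and SEP3 enrichment was 5.21-fold, 7.65-fold and 5.17-fold. The AP1 percentiles were 72.7, 51 and 42 and the SEP3 percentiles 71.4, 88.9 and 83.1. A BS just past the gene end, 5275 to 5306 bp from the start, was in the SEP3 lists of days 4 and 8 (5.38-fold and 6.19-fold) and in the AP1 list of day 8 (3.2-fold). SEP3 alone also held BSs 1073 and 1003 bp upstream at days 4 and 8 (3.41-fold and 2.67-fold) and 1 farther downstream at day 8 (3.75-fold).

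IAA17 (AT1G04250, AXR3) is an Aux/IAA gene known from stabilising mutations that disturb root growth. It was the only member in an AP1 list without SEP3 on the same day. Its single BS region lay 1455 to 1661 bp upstream. AP1 enrichment was 3.93-fold, 4.51-fold and 2.78-fold at days 2, 4 and 8, percentiles 43.2, 59.2 and 24.5. SEP3 had no BS there at day 2, and 7.35-fold and 4.60-fold at days 4 and 8. The summits of the 5 lists spanned 206 bp, so that the position was less sharply fixed than at IAA4. IAA3 (SHY2) lies 6388 bp away on the other strand and is the only member within 10000 bp of another. No BS named both, and IAA3 had a SEP3 BS of its own in its coding sequence at days 4 and 8 (4.18-fold and 4.16-fold).

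The other 5 genes of the AP1 lists were in 1 or 2 of those lists each. IAA26 (AT3G16500, PHYTOCHROME-ASSOCIATED PROTEIN 1) was bound near both of its ends. At its end, AP1 enrichment was 4.55-fold and 3.05-fold at days 4 and 8, and SEP3 enrichment was 3.76-fold, 6.45-fold and 3.59-fold at days 2, 4 and 8. In the 5′ UTR, AP1 had 3.44-fold and 2.90-fold at days 4 and 8, and SEP3 had 5.56-fold and 3.87-fold. SEP3 alone held BSs 969 and 997 bp upstream at days 4 and 8 (3.34-fold and 2.38-fold), and 1 BS 1592 bp upstream at day 4 (2.81-fold). ARF11 (AT2G46530) had an AP1 BS 330 bp upstream at day 2 and 209 bp upstream at day 4 (3.5-fold and 3.79-fold), and none at day 8. SEP3 held the same stretch at all 3 days, with a highest enrichment of 4.22-fold, 6.02-fold and 3.54-fold. At ARF11 the strongest SEP3 BS of day 8 was a different one, 2962 bp upstream, with 6.61-fold enrichment (rank 527 of 7815). It overlapped a SEP3 BS of day 4 that was not assigned to ARF11.

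IAA18 (AT1G51950) joined the AP1 list at day 8 only, 2379 bp upstream (3.14-fold). SEP3 BSs of days 4 and 8 overlapped that BS (7.05-fold and 5.19-fold). The SEP3 BS of day 2, 2240 bp upstream (3.96-fold), lay beside the AP1 BS without overlapping it. IAA18 had 5 SEP3 BSs in each of the day 4 and day 8 lists, spread from 2280 bp upstream to past the gene end. ARF5 (AT1G19850, MONOPTEROS) had its AP1 BS at day 8, 71 bp upstream (2.90-fold, percentile 33.3). SEP3 held the ARF5 start at day 4 (5.96-fold, 30 bp inside the start) and at day 8 (4.84-fold, 394 bp inside it), together with a BS 2043 bp upstream at day 4 and 2223 bp upstream at day 8 (4.07-fold and 2.76-fold) and 1 BS 562 bp upstream at day 8 (2.95-fold). ARF2 (AT5G62000), a repressing ARF that limits organ size, had the lowest AP1 value of the set, 2.60-fold at day 8 (percentile 11.3). That BS lay 5493 bp from the ARF2 start, past its end, and also named AT5G62020 (HSFB2A) and AT5G62030, 1 of which starts closer to the summit. SEP3 held 5 BSs at ARF2 at day 4, of 3.03-fold to 4.60-fold (percentiles 12.4 to 57.7). At day 8 it held 5, of 2.17-fold to 4.49-fold (percentiles 3.59 to 75.3). Each of these SEP3 BSs named another locus as well.

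**Figure D4:**
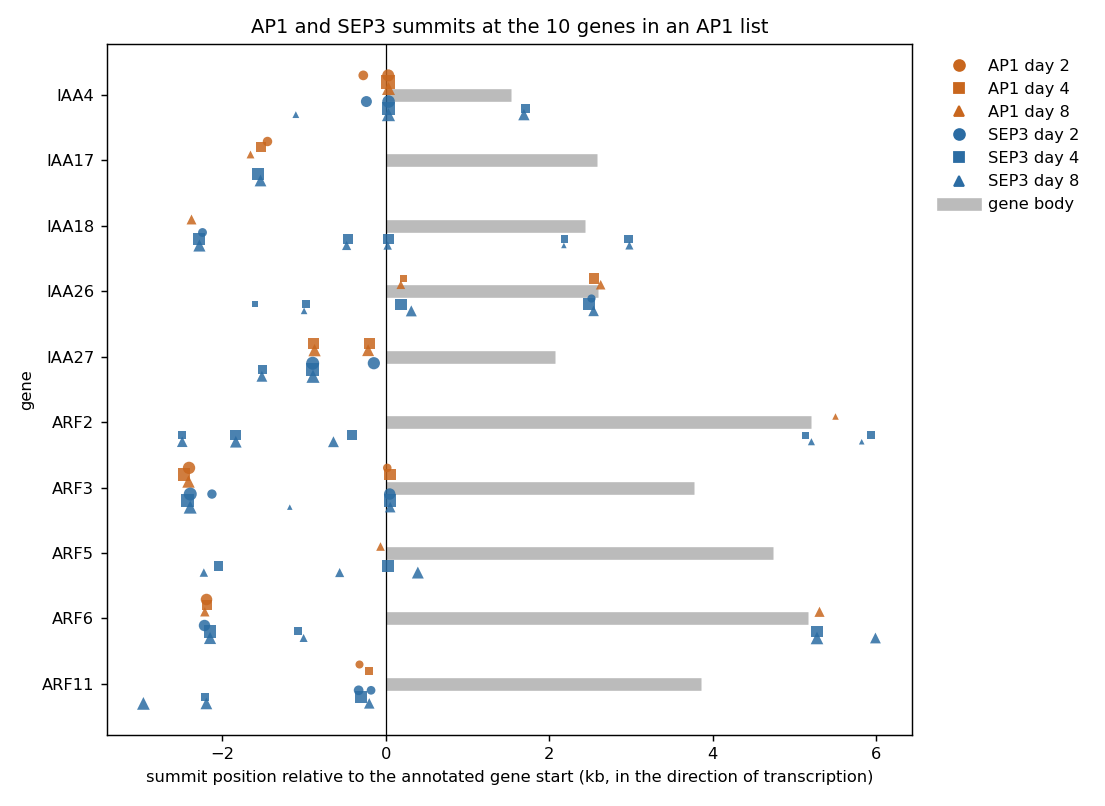
Summit positions relative to the annotated gene start, in kb along the direction of transcription, at the 10 genes of the AP1 lists; orange marks are AP1 and blue marks SEP3 (circle, day 2; square, day 4; triangle, day 8), mark size grows with the within-list percentile, and the grey bar is the gene. The 6 IAA4 summits at the start are stacked within 6 bp, while IAA27, ARF3 and ARF6 carry BSs of both factors upstream, with SEP3 summits 888, 2422 and 2150 bp from the start.

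SEP3 alone named 24 further genes. The 10 with the highest fold enrichment in any SEP3 list included the miR160-regulated repressors ARF10 and ARF16 and the lateral root regulator ARF19. That choice compares fold enrichments across lists that are not on one scale, and percentiles would order the genes differently. ARF10 (AT2G28350) had its strongest BS in the 5′ UTR, with 4.01-fold, 7.05-fold and 5.08-fold enrichment at days 2, 4 and 8. It had 5 BSs at day 4, among the most of any member in that list, and 4 at day 8. ARF16 (AT4G30080) had a single BS 2142 and 2150 bp upstream at days 4 and 8 (6.25-fold and 5.15-fold), centred 6 bp from the CArG box printed above at day 4, and it also named AT4G30090. ARF19 (AT1G19220) likewise had a single BS, with its summit at the same base 1618 bp upstream on both days. Its enrichment was 5.99-fold and 6.46-fold, and its percentile was 76.7 at day 4 and 92.5 at day 8.

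Among the Aux/IAA genes held by SEP3 alone, IAA2 and IAA31 carried a CArG box at every day. IAA2 (AT3G23030) had 4.29-fold, 6.22-fold and 5.77-fold enrichment at days 2, 4 and 8 over the box, 986 to 996 bp upstream. The percentiles there were 48.6, 78.9 and 88.4. In its coding sequence IAA2 had 3.94-fold, 6.68-fold and 5.38-fold enrichment, at percentiles 35.2, 82.9 and 85.2. IAA31 (AT3G17600) had 3.67-fold, 6.12-fold and 2.11-fold over its box, 394 to 428 bp upstream, at percentiles 24.4, 78 and 2.16. It also had 4.13-fold and 2.64-fold enrichment 2702 and 2704 bp upstream at days 4 and 8. Each BS of these genes also named a neighbouring locus, which for the IAA31 box was BSH and HYH. IAA13 (AT2G33310) had 5.33-fold and 5.01-fold enrichment at days 4 and 8 near its box, at percentiles 69.2 and 81.4. It had 5.23-fold and 4.46-fold 2973 and 2975 bp upstream (percentiles 67.8 and 74.9), and a day 8 BS of 2.60-fold between them.

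IAA20 (AT2G46990), which lacks the degron, had the highest fold enrichment of the 24 genes, 7.35-fold at day 4 (percentile 87.5). By percentile, ARF19 and IAA2 stood higher at day 8 (92.5 and 88.4). The IAA20 BS had 5.15-fold enrichment at day 8 (percentile 82.8). It lay 2169 and 2163 bp from the gene start at days 4 and 8, past the gene end. That BS also named AT2G46995 and ABCB4 (AT2G47000), an auxin transporter gene, and IAA20 had weaker BSs of 3.84-fold at day 4 and of 2.69-fold and 2.70-fold at day 8. IAA16 (AT3G04730) reached 5.92-fold at day 4 and 3.87-fold at day 8 273 and 266 bp upstream, and its other 5 BSs had 2.39-fold to 4.56-fold enrichment. IAA15 (AT1G80390) had 5.33-fold and 4.06-fold at its start at days 4 and 8 (percentiles 69.2 and 68.4), and 3.84-fold and 3.59-fold farther upstream (percentiles 40.4 and 58.6). IAA8 (AT2G22670) was in all 3 SEP3 lists, with 4.54-fold at day 2, 4.99-fold and 3.51-fold at day 4, and 3.85-fold at day 8, all 431 to 952 bp upstream.

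The other 14 genes held by SEP3 alone were IAA1, IAA3, IAA6, IAA7, IAA9, IAA11, IAA12, IAA29, IAA30, ARF4, ARF8, ARF9, ARF17 and ARF18. None was in a day 2 list. Their 12 BSs of day 4 had 3.04-fold to 4.23-fold enrichment with a median percentile of 32.3, and their 17 BSs of day 8 had 2.12-fold to 4.16-fold with a median percentile of 26.5. Since the 10 genes of highest enrichment had been set apart, low values among the rest follow from that choice, and single BSs still reached percentile 70.2 (IAA3) and 64.2 (ARF17) at day 8. ARF8, which shares its roles and its regulation by miR167 with ARF6, had a BS in its 5′ UTR of 4.04-fold at day 4 and 2.27-fold at day 8, percentiles 45.9 and 6.99. ARF4, which acts with ARF3 in organ polarity, had a single BS, of 3.11-fold at day 4. ARF17, the remaining miR160 target, was bound past its end only (3.6-fold and 3.84-fold at days 4 and 8).

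Position relative to the gene was compared next. Of the 180 pairs of a BS and an auxin gene, 143 had the member as the nearest of the listed gene starts, and 67 BSs named another locus too. Summits lay upstream of the gene in 18 of 29 AP1 pairs (62.1%), against 63.8% of all 3120 AP1 pairs with a coding locus, and in 99 of 151 SEP3 pairs (65.6%), against 59.2% of 23783. The 5′ UTR held 7 of 29 AP1 pairs (24.1%), against 5.93%, and 19 of 151 SEP3 pairs (12.6%), against 9.94%. The 7 AP1 pairs were 3 of IAA4, 2 of ARF3 and 2 of IAA26, that is, 3 genes seen on several days. No summit fell in an intron of a member, against 5.58% of all AP1 and 4.73% of all SEP3 pairs.

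The members also carried several BSs each. At day 4 a listed auxin gene had 2.14 SEP3 BSs on average, against 1.43 for a listed coding locus, and at day 8 it had 2.25 against 1.46. At least 2 BSs were found at 65.5% of listed members at day 4 and 59.4% at day 8, against 30% and 32.2% of listed coding loci. For AP1 the averages were 1.40, 1.43 and 1.33 at days 2, 4 and 8, against 1.24, 1.21 and 1.25. These numbers were not set against coding loci of like length, and the part of gene length in them was not tested. When overlapping BSs of all lists were merged, the 180 BSs formed 75 sites. SEP3 held all 75 and AP1 held 13. By the BSs assigned to these genes, SEP3 held 43 of them at days 4 and 8, 13 at all 3 days, 14 at day 8 only and 5 at day 4 only. At 1 of the 14, upstream of ARF11, a SEP3 BS of day 4 overlapped that was not assigned to the gene. Site counts over the whole lists are not given, so these counts are not shown to be particular to the auxin genes.

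To ask how stable these BSs were, each was overlapped with the other lists at a minimum of 1 bp. All 7 day 2 AP1 BSs recurred at day 4, against 83.5% of the whole list, and 5 recurred at day 8 (71.4%), against 61.2%. From the 10 AP1 BSs of day 4, 8 recurred at day 8 (80%), against 66.1%. The 17 day 2 SEP3 BSs all recurred on both later days, against 90.7% at day 4 and 86.9% at day 8 for the whole list. From the 62 SEP3 BSs of day 4, 57 recurred at day 8 (91.9%, interval 82.5 to 96.5%), against 86.8%. Between factors, 6 of 7 AP1 BSs overlapped a SEP3 BS at day 2 (85.7%), against 85.1%, and all 10 and all 12 did at days 4 and 8, against 99.8% and 96.3%. In the other direction AP1 overlapped 35.3%, 14.5% and 15.3% of the SEP3 BSs at days 2, 4 and 8, against 23.3%, 13.2% and 12%. The exception at day 2 was IAA17. The interval of each share in this paragraph covered the share of the whole list. Examples are 64.6 to 100% for AP1 day 2 BSs at day 4, 49 to 94.3% for AP1 day 4 BSs at day 8, and 17.3 to 58.7% for SEP3 day 2 BSs overlapped by AP1.

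AP1 and SEP3 summits of the same day lay a median of 22.5, 34 and 94.5 bp apart at days 2, 4 and 8 at the auxin genes, against 33, 28 and 46 bp over all overlapping BSs. The distance was within 50 bp at 6 of 6, 7 of 10 and 4 of 12 AP1 BSs. The day 8 figure includes distances of 674 bp at IAA27, 465 bp at ARF5 and 286 bp at ARF2. There the overlapping SEP3 BS was 1700, 995 and 638 bp wide and had its summit elsewhere. The day 4 figure includes 695 bp at IAA27.

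CArG boxes were searched within 50 bp of each summit on both strands. None of the 29 AP1 BSs of the auxin genes held one, against 6.09% of all 2529 AP1 BSs. With 3 taken as the upper limit of a count of 0, in place of a Wilson interval, this allows a share of up to 10.3% (3 of 29). Counted over the 13 sites that these BSs come from, it allows up to 23.1% (3 of 13). Of the 151 SEP3 BSs, 10 held a box (6.62%), against 6.04% of 16434. The 10 lie at the 5 sites printed above. With 1 mismatch allowed, 2 of 29 AP1 BSs (6.9%), at IAA18 and IAA27, held a match, against 32.8%, and 41 of 151 SEP3 BSs (27.2%), against 34.1%. Within 100 bp the shares were 31% of AP1 BSs, against 47.8%, and 48.3% of SEP3 BSs, against 47.5%, so that the SEP3 difference changed direction. The 29 AP1 BSs come from 13 sites, many of them seen on several days, so these shares rest on few sequences. Counted by site, with the summits of both factors searched, 5 of these 13 held a 1-mismatch match within 50 bp (IAA17, ARF5, IAA18, ARF3 and IAA27). Of the 62 sites held by SEP3 alone, 21 did.

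AuxREs were searched in the same windows in the classical form TGTCTC and in the form TGTCGG, which ARF proteins bind more tightly in vitro. TGTCTC occurred at 2 of 29 AP1 BSs (6.9%), against 9.13%, and at 17 of 151 SEP3 BSs (11.3%), against 8.12%. TGTCGG occurred at 3 AP1 BSs (10.3%), against 2.65%, and at 12 SEP3 BSs (7.95%), against 3.38%. Within 100 bp of the summit the TGTCGG shares were 31% of AP1 BSs, against 4.63%, and 13.2% of SEP3 BSs, against 5.71%. The AP1 BSs with TGTCGG within 100 bp came from sites at 4 genes, IAA4, IAA27, ARF3 and ARF2. The ARF3 window shown at the start is 1 of them. At IAA27 a further SEP3 BS, chr4:14326824-14326924 (1513 bp upstream), held TGTCTC 3 bases from a CArG box with 1 mismatch, and it is printed because both elements stand side by side in it (capitals).
IAA27: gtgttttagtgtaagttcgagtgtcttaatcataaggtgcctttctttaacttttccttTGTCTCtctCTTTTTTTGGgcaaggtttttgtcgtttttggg

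The members were also counted by what is known of their proteins and regulation, in groups of 2 to 23 genes that are read against 31.1% of coding loci in SEP3 lists and 5.23% in AP1 lists. Aux/IAA proteins are degraded through a degron that contains the residues GWPP, and 23 of the 29 translated genes held GWPP. Of these 23, 18 were in a SEP3 list and 5 in an AP1 list. Of the 6 without it (IAA20, IAA30, IAA31, IAA32, IAA33 and IAA34), 3 were in a SEP3 list and none in an AP1 list. Of the 5 activating ARFs (ARF5, ARF6, ARF7, ARF8 and ARF19), 4 were in a SEP3 list and 2 in an AP1 list, and of the other 10, 9 and 3. The 3 targets of miR160, ARF10, ARF16 and ARF17, were all in SEP3 lists and in no AP1 list. Both targets of miR167 were in SEP3 lists, and ARF6 was in AP1 lists too. The 3 targets of the tasiARF small RNAs, ARF2, ARF3 and ARF4, were all in SEP3 lists, and ARF2 and ARF3 in AP1 lists.

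In no list were IAA5, IAA10, IAA14, IAA19, IAA28, IAA32, IAA33, IAA34, ARF1 and ARF7. They include IAA14 (SLR) and ARF7, known from lateral root formation, IAA19 (MSG2), known with ARF7 from tropic growth, and ARF1, which overlaps with ARF2 in function. The nearest SEP3 summit to ARF7 was 4705 bp upstream and that to ARF1 8620 bp upstream, and the nearest AP1 summits to the 10 genes were at least 27148 bp away. IAA14 had a SEP3 summit of day 4 2797 bp upstream (3.44-fold) to which the authors' list assigned no locus. IAA28 had one of day 8 840 bp past its end (3.25-fold), which named 2 other loci. Assigning summits anew within 3000 bp upstream and 1000 bp downstream therefore added these 2 genes.

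Genes upstream and downstream of these families were counted against the same shares, 31.1% of coding loci for SEP3 and 5.23% for AP1. Of the 6 auxin receptor genes, TIR1 and AFB1 to AFB4 were in SEP3 lists and AFB5 was in none, and none of the 6 was in an AP1 list. Of the 5 co-repressor genes, TOPLESS (TPL), TPR1, TPR2 and TPR3 were in SEP3 lists and none in an AP1 list. At TPL the main SEP3 BS lay just upstream of the start at days 4 and 8 (7.38-fold and 6.78-fold). Of 8 GH3 genes, which encode enzymes that conjugate auxin to amino acids and are induced by it, 5 were in SEP3 lists and GH3.2 and GH3.3 in AP1 lists. GH3.3 was in all 6 lists, at AP1 day 2 only through a BS among the weakest of that list. At its proximal BS, AP1 enrichment was 2.49-fold, 4.28-fold and 4.86-fold at days 2, 4 and 8. That ranked the BS 495th of 498, 454th of 956 and 116th of 1075. SEP3 enrichment there was 3.69-fold, 8.72-fold and 7.92-fold, ranking 1330th of 1776, 439th of 6843 and 152nd of 7815. GH3.2 was in the AP1 lists of days 4 and 8 (highest values 3.72-fold and 3.74-fold). The 8 remaining ARF genes, ARF12 to ARF15 and ARF20 to ARF23, which form a cluster of close relatives on chromosome 1, were in none of the lists. The authors had removed reads that mapped to several places, and its part in this absence was not tested.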

How the data were processed

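Inflorescence ChIP-seq of AP1 and SEP3 was analysed from 6 peak lists. Per the labels, the authors used CASAVA 1.7 and 1.8 and Bowtie 0.12.7 with TAIR10, and by the study's methods they removed reads from organelles or with several locations, combined replicates and ran MACS2 with the mock as background. The deposited fold enrichment is a linear ratio of ChIP over control, and the deposited −log10 q-value is the peak caller's own, while its −log10 p-value was not used. Blank lines that ended 2 AP1 files (230 and 111) were dropped. Genes are those the authors assigned to each peak. That rule took loci from 3000 bp before the start to 1000 bp past the end, which held for 99.8% of 28072 pairs of a BS and an annotated locus. Gene models and sequence came from the RefSeq copy of the same build. Counts, overlaps, ranks and motifs were computed in Python 3.11.15 with pandas 2.3.3 and tested on simulated data. The genes and the lists of related genes were chosen with earlier results of these data known. Values are given in full for members in an AP1 list and for the 10 SEP3-only members of highest fold enrichment. Alternatives were a −log10 q of at least 10, a narrower window, a new assignment of summits, equal list lengths, other overlap rules, wider motif windows, a mismatch and other backgrounds. Read depth was not analysed here.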

Additional observations from a re-analysis of the deposited data

How the results depend on the processing

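Of 77 values recomputed with other settings, 48 stayed within a factor of 1.5 (counts, ratios and median percentiles) or within the 95% interval (other percentages) of the value reported, which is wide at these counts, 28 moved past that and 1 changed side. The 8 ratios against long coding loci, chosen after seeing the data, stayed within it.
With BSs limited to a −log10 q of at least 10, AP1 named 3 genes at day 2 (6.82%, against 0.66% of coding loci), 3 at day 8 (6.82%, against 2.04%) and 6 over all days, SEP3 named 4 at day 2 (9.09%, against 3.03%), and the overlap of AP1 day 2 BSs with SEP3 was 100%. With summits limited to 1000 bp upstream through the gene end, AP1 named 3 genes at day 2 (6.82%, against 0.867%), 4 at day 8 (9.09%, against 1.89%) and 6 over all days. With each list cut to its 498 BSs of highest fold enrichment, AP1 named 4 genes at day 8 (9.09%, against 2.03%) and SEP3 named 3 at each day and 3 over all days (6.82%, against 2.03%, 2.29% and 2.32% at days 2, 4 and 8).
Against coding loci in at least 1 list, the ratios became 2.58, 1.82, 2.13 and 1.76 for AP1 at days 2, 4, 8 and any day, and 1.53, 1.04, 1.04 and 1.01 for SEP3. SEP3 lists named 99.5% of those loci, so the SEP3 ratio over any day could only lie near 1 and the late ones could rise little above it. A reciprocal overlap of 50% lowered the AP1 overlap with SEP3 to 30% at day 4 and 8.33% at day 8, that of AP1 day 2 with day 4 to 42.9%, and that of SEP3 day 2 with day 4 to 5.88%, in lists whose BSs differ in width. Summits within 150 bp gave 75% for AP1 and SEP3 at day 8. Shares over the whole lists are not given under either rule, so these drops are not shown to be particular to the auxin genes.
TGTCGG reached 31% of AP1 BSs within 100 bp, and the CArG share of SEP3 BSs was 27.2% with 1 mismatch. Ranked by −log10 q, the AP1 day 2 median percentile was 50.6 in place of 47, on the other side of the list's middle.
No paired analysis was possible because each list combines its replicates, and for the same reason no replicate could be left out. Counts of 12 or fewer AP1 BSs per list limit every AP1 share.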
